A study of Mus musculus with 27 samples.

Results

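The genes described here encode the chains of the collagens and laminins. They were picked out by symbol: every gene listed as Col, a number, a and a number, or as Lam, the letter a, b or c and a digit. This rule found 54 of the 27080 genes listed in the 3 deposited RNA-seq tables, 43 collagen chains and 11 laminin chains. It used no measured value to pick single genes, but the set, its classes and the lists below were chosen with earlier results of these data known. The 17 basement membrane genes (6 collagen IV chains and 11 laminins) were set against the 11 fibrillar collagens, and the other 26 collagens are given by type. The series holds 27 samples of J1 cells, a mouse ESC line, of which the 12 RNA-seq libraries are used here and the 15 ChIP-seq samples were not analysed here.

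All 12 libraries came from mESCs grown on gelatin without feeder cells in serum and leukemia inhibitory factor (LIF), or from embryoid bodies (EBs) made from them. Control cells carried a control shRNA vector (shCon, 3 libraries) and knockdown (KD) cells carried shGas41-1 (3 libraries) or shGas41-2 (2 libraries), both directed at *Gas41*, a YEATS domain subunit of chromatin complexes. KD cells were selected with puromycin and harvested 8 days after lentiviral infection. The EB groups carried the control vector as well: EB day 0 (2 libraries) was undifferentiated mESCs kept with LIF, and EB day 6 (2 libraries) was aggregates formed in low-attachment wells without LIF. EB day 6 is therefore a mixture of cell types, and in bulk RNA fewer cells of a type cannot be told apart from less RNA in each cell. The study's methods state that all experiments had biological repeats, and the labels do not say which libraries came from separate cultures. Where they did not, p-values measure only the spread between these libraries, which may be technical.

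Libraries held between 59224537 and 81524773 counts. Levels are given as CPM, the counts of a gene relative to all counts of its library after TMM scaling, on which 3 counts, taken as the smallest measurable amount, equalled 0.0373 to 0.0493 CPM. *Gas41*, listed as *Yeats4*, stood at 50.9 to 61.2 CPM in shCon, 3.46 to 5.10 CPM with shGas41-1 and 7.95 to 8.81 CPM with shGas41-2. Of 8 ESC markers, 6 were lower at EB day 6, and their summed level was 5534 to 6050 CPM at EB day 0 and 2278 to 2400 CPM at EB day 6. The library shGas41-1 replicate 3 stood apart from its group, where a chi-square test of its counts against the other shGas41-1 libraries gave 134 and 219 per degree of freedom and other replicate pairs gave 27.3 to 75.9.

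Basement membranes are thin sheets of matrix on which epithelia, endothelia and the early germ layers rest. Laminins, heterotrimers of an α, a β and a γ chain, assemble the first sheet at the cell surface, and collagen IV, a trimer of α chains, cross-links it into a lasting network. Fibrillar collagens (types I, II, III, V, XI, XXIV and XXVII) instead form the fibers of connective tissue, cartilage and bone. In the early mouse embryo laminin with the chains α1 or α5, β1 and γ1 appears first, and the parietal endoderm later lays down a thick basement membrane of laminin and collagen IV.

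The 6 collagen IV genes lie in 3 head-to-head pairs, *Col4a1* with *Col4a2*, *Col4a3* with *Col4a4*, and *Col4a5* with *Col4a6*, and each pair starts from a shared stretch of DNA. In mm9 the annotated ends of *Col4a3* and *Col4a4* on chromosome 1 were 71 bases apart, those of *Col4a5* and *Col4a6* on chromosome X were 1308 bases apart, and *Col4a1* and *Col4a2* on chromosome 8 overlapped by 22 bases. The start regions are shown because both genes of each expressed pair were higher at EB day 6 in the results below. Sequences are from RefSeq on GRCm38.p6, which held a promoter window for 40 of the 54 genes, *Col4a3* not among them. They run 5′ to 3′ on the strand of the gene named, and capitals mark the GC box GGGCGG and the CCAAT box CCAAT, searched on both strands. The 22 bases that the *Col4a2* and *Col4a1* transcripts share lie at chr8:11312805-11312826 (plus strand, the strand of *Col4a2*), and the 250 bases before each start are given for *Col4a5* (chrX:141475169-141475418, plus strand) and *Col4a6* (chrX:141474077-141474326, minus strand).
Col4a2 and Col4a1, shared start: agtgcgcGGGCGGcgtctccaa
Col4a5, upstream: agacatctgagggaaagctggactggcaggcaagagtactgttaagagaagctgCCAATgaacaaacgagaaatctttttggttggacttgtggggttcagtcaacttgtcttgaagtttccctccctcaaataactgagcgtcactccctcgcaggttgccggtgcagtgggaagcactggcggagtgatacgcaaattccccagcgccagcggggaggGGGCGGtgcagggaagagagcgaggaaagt
Col4a6, upstream: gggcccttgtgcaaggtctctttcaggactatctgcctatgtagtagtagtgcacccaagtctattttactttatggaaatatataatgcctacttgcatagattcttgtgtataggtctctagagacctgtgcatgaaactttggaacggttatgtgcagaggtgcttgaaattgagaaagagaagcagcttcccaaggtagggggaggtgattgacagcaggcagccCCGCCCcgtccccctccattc

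The upstream 250 bases differed in composition between the pairs. Those of *Col4a1* and *Col4a2* were 74.4% and 73.6% G or C with 31 and 26 CpG dinucleotides, those of *Col4a5* 54.0% with 10, and those of *Col4a6* 47.6% with 3, where the median of all windows was 52.4% G or C. A GC box was found upstream of *Col4a2* (2 matches), *Col4a5* and *Col4a6* (1 each), and a CCAAT box upstream of *Col4a1*, *Col4a2* and *Col4a5* (1 each). Upstream of *Col4a4*, which stayed near the smallest measurable amount, neither motif was found. Of all 32851 windows, 32.7% held a GC box and 33.85% a CCAAT box. Of the 44 windows of collagen and laminin genes, 24 held a GC box and 14 a CCAAT box. A match describes the sequence and was not tested as a binding site.

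In undifferentiated mESCs the summed level of the basement membrane genes was far above that of the fibrillar ones. In shCon the summed level was 542 ± 75.0 CPM for the 17 basement membrane genes and 10.0 ± 2.11 CPM for the 11 fibrillar collagens (SD, n = 3), and in EB day 0 it was 825 ± 30.0 and 13.2 ± 2.42 CPM (SD, n = 2). The laminins carried nearly all of the basement membrane sum, 524 ± 72.7 CPM in shCon against 17.3 ± 2.39 CPM for collagen IV. Most of it was *Lamc1* alone, with a mean of 364 CPM, while *Col4a3*, *Col4a4*, *Col4a6*, *Lama2* and *Lamc3* did not exceed 0.135 CPM in shCon. Among the other collagens *Col18a1*, the core protein of the basement membrane proteoglycan collagen XVIII, made up most of the level, at 163, 214 and 226 CPM in the shCon libraries. Only 8 of the 54 genes reached 10 CPM in every shCon library, and 36 lay under 1 CPM in all of them.

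Per kilobase of merged exons, *Lamc1*, which encodes the γ1 chain of most laminins, had the highest mean level in shCon at 44.0 CPM per kb. *Col18a1* followed at 28.6 CPM per kb, and *Lama5* (α5), *Lamb1* (β1), *Lamb2* (β2) and *Lama1* (α1) lay between 2.36 and 5.38 CPM per kb. *Col4a1* and *Col4a2*, whose products form the common α1α1α2 trimer of collagen IV, stood at 1.83 and 0.706 CPM per kb, and no fibrillar collagen exceeded the 0.583 CPM per kb of *Col5a1*. Exon lengths were known for all 54 genes from the GENCODE annotation of mm9.

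**Figure D1:**
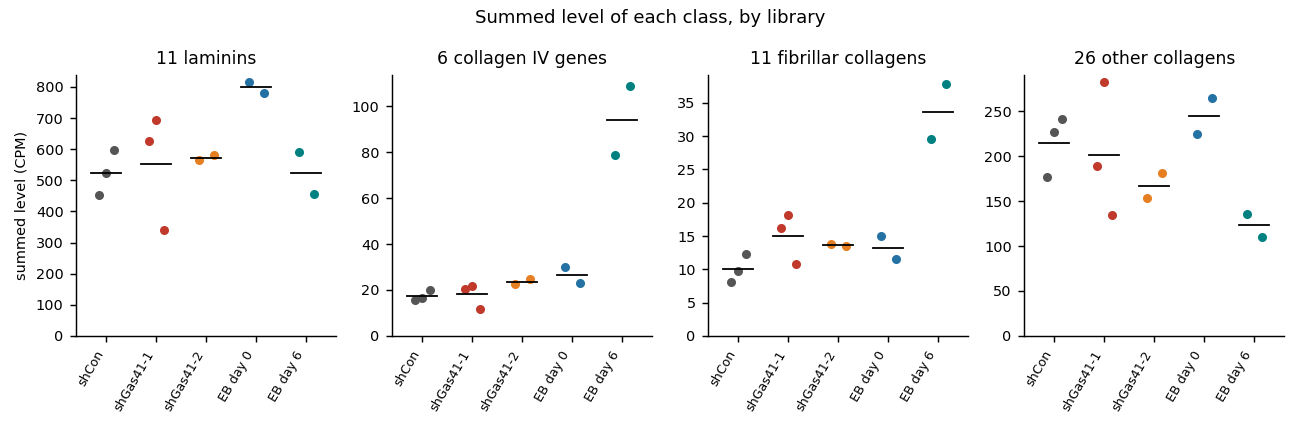
Summed level (CPM, y axis from 0) of the 11 laminins, 6 collagen IV genes, 11 fibrillar collagens and 26 other collagens in each of the 12 libraries, grouped by condition (points are libraries, black lines are group means). Collagen IV reached 79.0 and 109 CPM and fibrillar collagens 29.6 and 37.8 CPM at EB day 6, above every other library, while the laminin sum was 816 and 780 CPM at EB day 0 and 591 and 457 CPM at EB day 6.

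EB formation moved many collagen and laminin genes, and in opposite directions. Of the 45 that passed the filter on low counts, 21 were higher and 10 were lower at EB day 6 than at EB day 0 (log2 fold change of at least 1 and an adjusted p of at most 0.05 from edgeR's quasi-likelihood test), where 16.6% of all 18287 genes tested were higher and 14.7% lower. Their median log2 fold change was 0.73, beside −0.00 over all genes. Where groups are said below not to overlap, this only describes the few libraries of each group. The share of all genes without overlap was not computed, and with so few libraries the lack of overlap adds no support to a call. Of 15 basement membrane genes tested, 6 were higher and 3 lower (median 0.56), and of 10 fibrillar collagens 7 were higher and 2 lower (median 1.49). Without EB day 0 replicate 3, which leaves that group 1 library assumed to vary like the other group, 10 genes were higher and 6 lower, among them 4 higher and 3 lower basement membrane genes and 3 higher and 1 lower fibrillar collagens. The 10 higher genes that kept their call without each of the 4 libraries in turn were *Col4a2*, *Col4a5*, *Col4a6*, *Lamb1*, *Col1a2*, *Col5a2*, *Col24a1*, *Col6a2*, *Col9a1* and *Col22a1*, and the 5 such lower genes included *Lama1*, *Lamc1*, *Col5a3* and *Col6a4*.

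**Figure D2:**
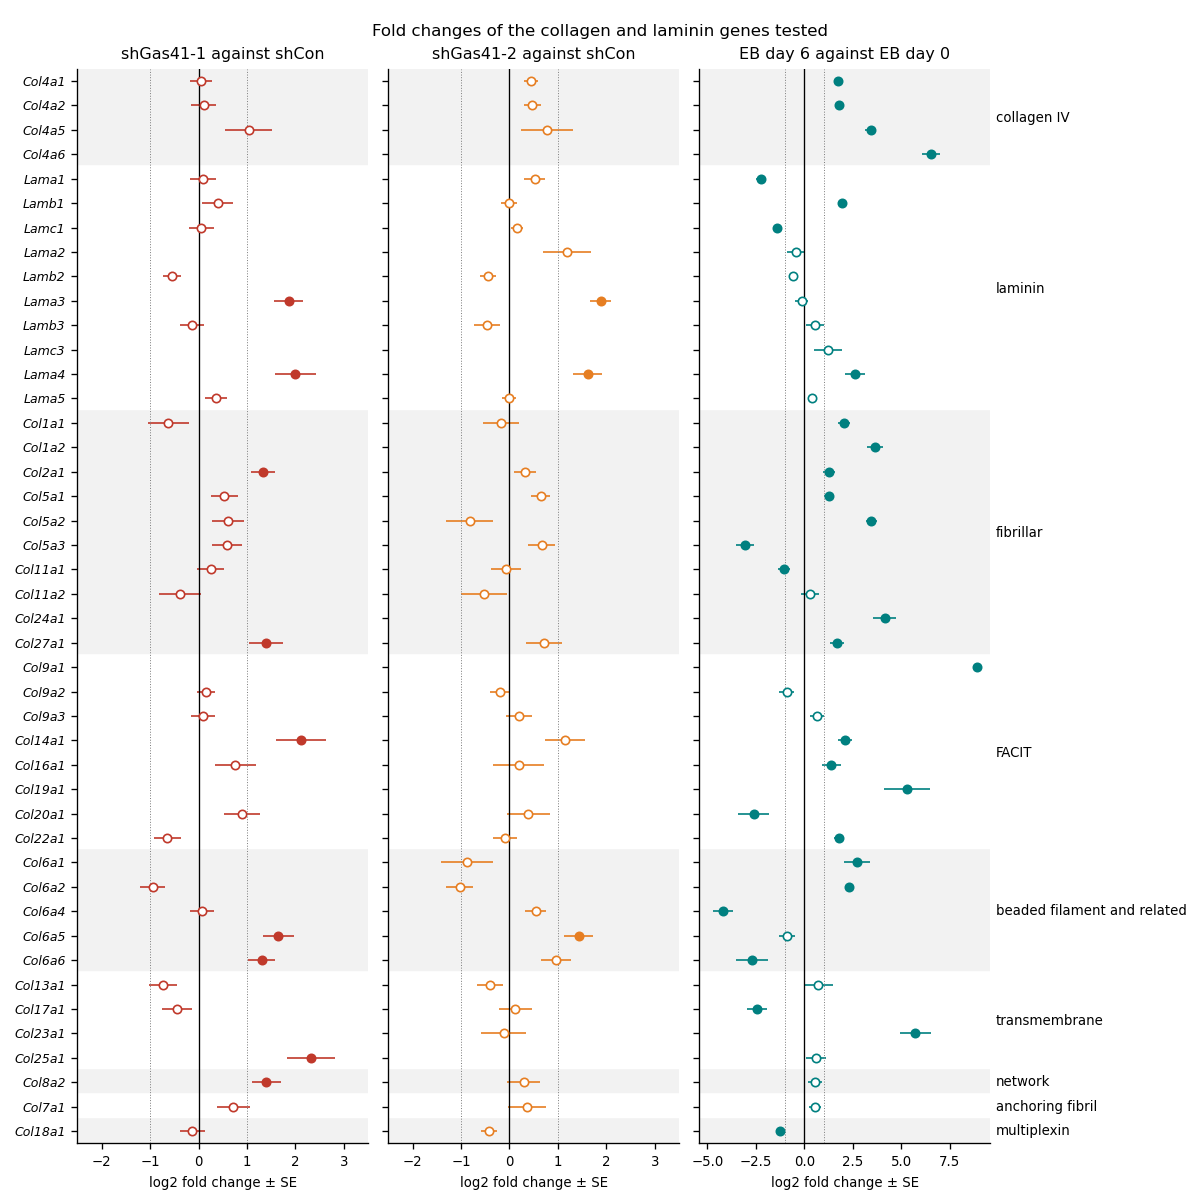
Log2 fold change (x axis) with its standard error for the collagen and laminin genes reported here and tested in at least 1 comparison, grouped by type, in the 3 comparisons (left to right: shGas41-1 and shGas41-2 against shCon, EB day 6 against EB day 0, on a wider axis). Filled points passed the fold and adjusted p thresholds, open points were tested and did not pass, and dotted lines mark −1 and 1. All 4 collagen IV genes tested were higher at EB day 6. The fitted values of *Col9a1* (drawn without an error bar), *Col4a6*, *Col19a1* and *Col24a1* there rest on at most 3 counts in each EB day 0 library.

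All 4 collagen IV genes that could be tested were higher at EB day 6. *Col4a1* stood at 21.8 and 16.5 CPM in the EB day 0 libraries and 53.0 and 75.8 CPM at EB day 6, a log2 fold change of 1.73 ± 0.20 (SE, adjusted p = 0.000565). *Col4a2* stood at 7.74 and 6.26 CPM and at 21.1 and 28.2 CPM, a log2 fold change of 1.79 ± 0.19 (adjusted p = 0.000341). The groups did not overlap for either gene, and the library higher in *Col4a1* was the one higher in *Col4a2* on both days. *Col4a5*, a chain of kidney, lung and smooth muscle basement membranes, stood at 0.214 and 0.273 CPM and at 2.66 CPM in both EB day 6 libraries (log2 fold change 3.43 ± 0.30, adjusted p = 0.000162).

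*Col4a6*, the partner of *Col4a5*, was close to the smallest measurable amount at EB day 0, with 3 counts in both libraries together against 285 at EB day 6, a ratio of 101 with a 95% counting interval of 34.3 to 495 (exact, counting error only) and an adjusted p of 6.55e-05. Its levels were 0.0268 and 0.0152 CPM before and 2.19 and 2.13 CPM after, close to those of *Col4a5*. *Col4a3* and *Col4a4*, known for the basement membrane of the kidney glomerulus, did not pass the filter and lay between 0 and 0.137 CPM in all 12 libraries. Of these calls that of *Col4a1* was lost without EB day 0 replicate 3 (adjusted p = 0.0507).

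**Figure D3:**
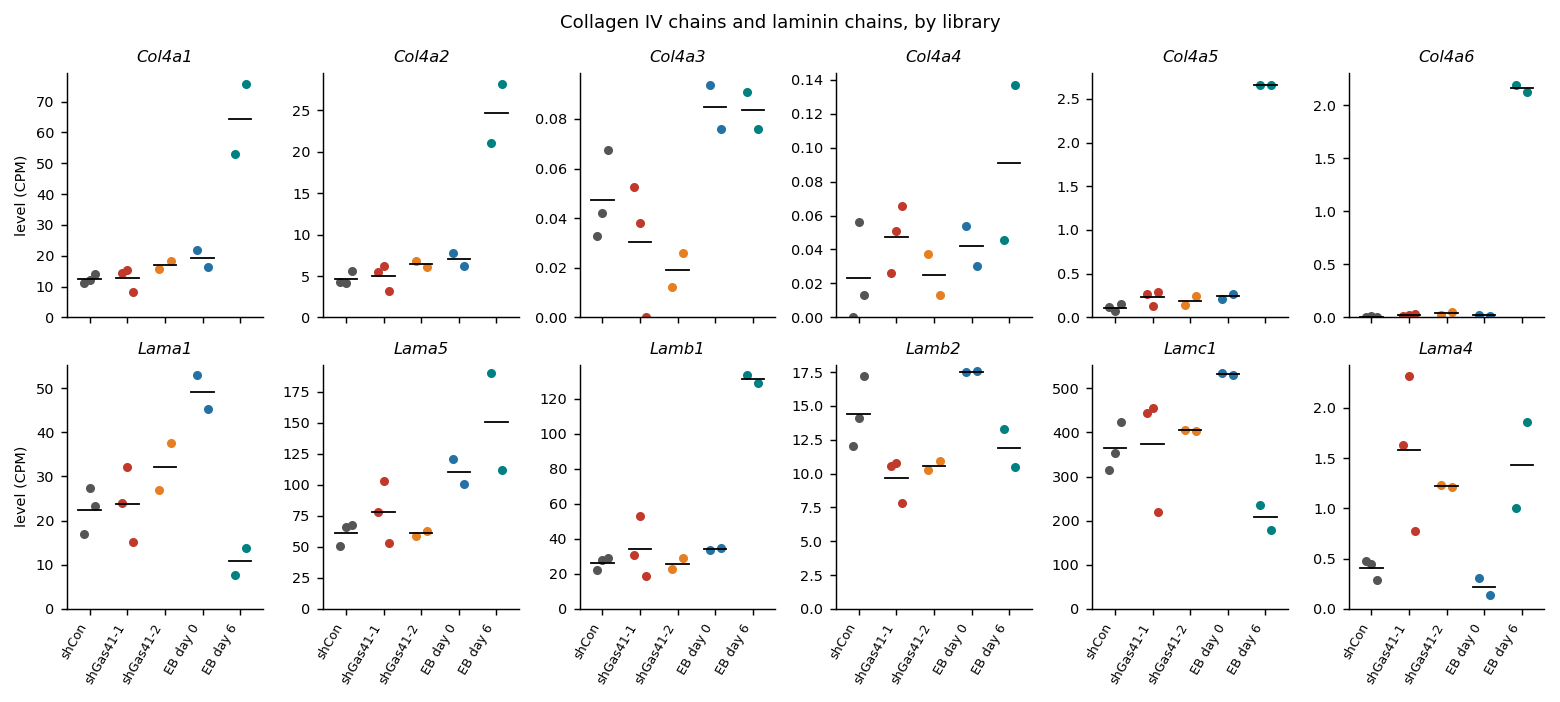
Level (CPM, y axes from 0 with a scale for each gene) of the 6 collagen IV chains and 6 laminin chains in every library, with group means as black lines. At EB day 6 *Col4a1*, *Col4a2*, *Col4a5*, *Col4a6* and *Lamb1* lay above all other libraries, while *Lama1* lay below all of them. *Col4a3* and *Col4a4* did not exceed 0.137 CPM.

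The laminin chains moved apart in EBs. *Lamb1* (β1) was at 33.6 and 34.6 CPM at EB day 0 and 134 and 129 CPM at EB day 6, a log2 fold change of 1.93 ± 0.08 (adjusted p = 1.13e-05). *Lamc1* (γ1), its partner in most laminins, went the other way, from 536 and 530 CPM to 236 and 179 CPM (log2 fold change −1.38 ± 0.14, adjusted p = 0.000293). *Lama1* (α1, the chain of the earliest embryonic laminin) was at 53.0 and 45.3 CPM and then 7.59 and 13.9 CPM, a log2 fold change of −2.22 ± 0.26 (adjusted p = 0.000614). None of these groups overlapped. Per kilobase of exon, the mean level of *Lamc1* exceeded that of *Lamb1* by 64.4 against 3.44 CPM per kb at EB day 0 and by 25.1 against 13.3 CPM per kb at EB day 6.

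The other α chains did not follow *Lama1*. *Lama5* (α5, the chain most widespread in later embryonic epithelia) was at 121 and 100 CPM at EB day 0 and 190 and 112 CPM at EB day 6, which overlapped and did not pass the test (log2 fold change 0.42 ± 0.24, adjusted p = 0.171). *Lama4* (α4, typical of blood vessel and mesenchymal basement membranes) was at 0.308 and 0.136 CPM and then 0.998 and 1.86 CPM (log2 fold change 2.63 ± 0.52, adjusted p = 0.005), a call that was lost without EB day 0 replicate 3 (adjusted p = 0.0868). *Lama3* (α3, the chain of epithelial laminin) gave −0.13 ± 0.33, and *Lama2* (α2, the muscle chain) −0.42 ± 0.47, and neither passed.

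*Lamb3* (β3, a partner of α3 in epithelial laminin) did not pass in EBs, at 0.817 and 0.682 CPM at EB day 0 and 0.681 and 1.57 CPM at EB day 6. *Lamb2* (β2) was at 17.5 and 17.6 CPM and then 13.3 and 10.5 CPM, a difference with an adjusted p of 0.0148 whose log2 fold change of −0.58 ± 0.15 was under the fold threshold. *Lamc3* (γ3) did not exceed 0.242 CPM in any library.

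Among the fibrillar collagens the genes of connective tissue collagen rose from a low level. *Col1a1* and *Col1a2*, the chains of collagen I, were at 0.683 and 0.576 and at 0.134 and 0.227 CPM at EB day 0, and at 2.06 and 3.27 and at 1.75 and 2.88 CPM at EB day 6. The log2 fold changes were 2.05 ± 0.33 (adjusted p = 0.00211) and 3.66 ± 0.43 (adjusted p = 0.000572), and the groups did not overlap. *Col5a2*, a chain of collagen V that starts and limits the width of collagen I fibers, was at 0.335 and 0.333 CPM and then 4.05 and 3.47 CPM (log2 fold change 3.46 ± 0.27, adjusted p = 0.000101). *Col5a1*, the main chain of collagen V and the most abundant fibrillar gene, was at 7.38 and 5.59 CPM and then 12.7 and 19.0 CPM (log2 fold change 1.26 ± 0.23, adjusted p = 0.00408).

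The third collagen V chain went the other way. *Col5a3* was at 0.910 and 0.742 CPM at EB day 0 and 0.121 and 0.0761 CPM at EB day 6, a log2 fold change of −3.07 ± 0.46 (adjusted p = 0.00161), while *Col11a1*, a chain of cartilage collagen XI, was at 2.44 and 1.59 and then 1.09 and 0.913 CPM (log2 fold change −1.03 ± 0.31, adjusted p = 0.0277). *Col2a1*, the main collagen of cartilage and notochord, was at 1.54 and 1.42 and then 4.55 and 2.69 CPM (log2 fold change 1.27 ± 0.31, adjusted p = 0.0117). *Col27a1*, also a cartilage collagen, was at 1.29 and 0.803 and then 2.54 and 4.41 CPM (log2 fold change 1.70 ± 0.37, adjusted p = 0.00756). The libraries of the 2 days did not overlap for these genes, which does not add to the tests.

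A pair of fibrillar genes had hardly any counts at EB day 0. *Col24a1* had 4 counts there (0.0268 and 0.0303 CPM) and 72 at EB day 6 (0.454 and 0.639 CPM), a ratio of 19.2 with a 95% counting interval of 7.19 to 72.4 (adjusted p = 0.00123), and *Col3a1*, the collagen of extensible tissues, had 0 counts and 17, which is at least 3.02-fold higher against 3 counts in each library and too few for the test. *Col11a2* did not pass (log2 fold change 0.30 ± 0.45). Left out 1 library at a time, the calls of *Col1a1*, *Col5a1*, *Col2a1* and *Col27a1* were lost without EB day 0 replicate 3, with adjusted p-values of up to 0.068, 0.102, 0.144 and 0.121 over the 4 omissions. That of *Col5a1* was also lost without EB day 6 replicate 3, that of *Col2a1* without EB day 0 replicate 2 or EB day 6 replicate 2, and that of *Col11a1* without either EB day 0 library or EB day 6 replicate 3 (up to 0.187).

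Of the 20 other collagens tested in EBs, 8 were higher and 5 lower, and without EB day 0 replicate 3 the counts were 3 and 2. The collagen VI genes, whose chains form beaded microfilaments around cells, split by chain. *Col6a2* (α2) was at 0.616 and 0.712 CPM and then 3.39 CPM in both EB day 6 libraries (log2 fold change 2.33 ± 0.24, adjusted p = 0.000356), and its neighbour *Col6a1* (α1) at 0.0669 and 0.0303 and then 0.439 and 0.243 CPM (log2 fold change 2.72 ± 0.67, adjusted p = 0.0117). The alternative chain *Col6a4* (α4) was at 3.27 and 2.59 and then 0.0605 and 0.259 CPM, a log2 fold change of −4.21 ± 0.53 (adjusted p = 0.000744). *Col6a6* (α6) was at 0.174 and 0.530 and then 0.0756 and 0.0304 CPM (log2 fold change −2.69 ± 0.82, adjusted p = 0.0267), and *Col6a5* (α5) gave −0.90 ± 0.42, which did not pass. The groups of *Col6a1*, *Col6a2*, *Col6a4* and *Col6a6* did not overlap, and *Col6a3*, whose product joins α1 and α2 in the common trimer, was not tested, with 2 counts at EB day 0 and 16 at EB day 6 (ratio 8.54, 95% counting interval 2.01 to 76.5). The call of *Col6a1* was lost without any EB library but EB day 6 replicate 3 (adjusted p up to 0.109), and that of *Col6a6* without EB day 0 replicate 3 or EB day 6 replicate 3 (up to 0.178).

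The collagens that bind to the surface of fibrils (FACIT collagens) gave 5 higher and 1 lower gene of 8 tested. *Col9a1*, a chain of cartilage collagen IX, had 0 counts at EB day 0 and 117 at EB day 6, at least 20.7-fold higher against 3 counts in each library (adjusted p = 0.00101), at 0.650 and 1.13 CPM. Its neighbour *Col19a1*, a collagen of muscle and brain, had 2 counts (0.0268 and 0 CPM) and 84 (0.257 and 1.02 CPM), a ratio of 44.8 with a 95% counting interval of 12.0 to 376 (adjusted p = 0.0072). *Col9a2* and *Col9a3*, which encode the other collagen IX chains, did not pass, at −0.91 ± 0.37 and 0.67 ± 0.35, and part of the *Col9a3* exons (6.07%) overlap *Tcfl5* on the other strand, whose reads an unstranded count cannot tell apart.

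*Col14a1* and *Col22a1*, FACIT collagens of dense connective tissue and of tissue junctions, were at 0.241 and 0.258 and at 0.803 and 1.05 CPM at EB day 0, and at 1.23 and 0.974 and at 3.13 and 3.33 CPM at EB day 6. Their log2 fold changes were 2.11 ± 0.36 (adjusted p = 0.00273) and 1.79 ± 0.25 (adjusted p = 0.00126), and the groups did not overlap. *Col16a1*, at 0.120 and 0.227 and then 0.469 and 0.456 CPM, passed narrowly (1.40 ± 0.48, adjusted p = 0.0424) and lost its call without any of the 4 libraries (adjusted p of 0.0689 to 0.22), and *Col20a1*, at 0.321 and 0.151 and then 0.0605 and 0.0152 CPM, was lower (−2.62 ± 0.81, adjusted p = 0.0283), with its call lost without either EB day 0 library or EB day 6 replicate 3 (up to 0.203). The calls of *Col14a1* and *Col19a1* were lost without EB day 0 replicate 3, with an adjusted p of up to 0.122 for *Col19a1* over the omissions.

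Among the remaining types the transmembrane collagens *Col23a1* and *Col17a1* differed in direction. *Col23a1* was at 0.161 and 0.0757 CPM and then 2.87 and 10.4 CPM (log2 fold change 5.74 ± 0.78, adjusted p = 0.00107), and *Col17a1*, the hemidesmosome collagen of epithelia, at 0.629 and 0.439 and then 0.121 and 0.0761 CPM (log2 fold change −2.44 ± 0.51, adjusted p = 0.00633). *Col18a1*, the second most abundant gene of all 54 in shCon, was at 209 and 251 and then 114 and 78.9 CPM, a log2 fold change of −1.27 ± 0.18 (adjusted p = 0.0014). The groups of all 3 genes were apart, and the calls of *Col23a1* and *Col18a1* were lost without EB day 0 replicate 3 (adjusted p up to 0.0755 and 0.0697) and that of *Col17a1* without EB day 0 replicate 2 (0.0622). *Col13a1*, *Col25a1*, *Col8a2* and *Col7a1* (the anchoring fibril collagen) did not pass, with log2 fold changes between 0.55 and 0.73.

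Gas41 KD gave fewer calls among these genes, and none for the abundant basement membrane chains. With shGas41-1, 9 of 36 genes tested were higher and 0 lower, where 7.90% of all 18274 genes tested were higher and 2.40% lower. With shGas41-2, 3 of 38 were higher and 0 lower, where 3.96% of 18405 genes were higher and 0.869% lower. The 0 counts are from edgeR's quasi-likelihood test, DESeq2 gave 0 as well, and at an unadjusted p under 0.05 there were 4 lower genes with shGas41-1 and 3 with shGas41-2. Over the collagen and laminin genes tested the log2 fold changes had medians of 0.31 and 0.19, beside 0.02 and −0.01 over all genes. Both KDs were compared with the same 3 shCon libraries, so their values are given side by side and are not independent.

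The genes called with both shRNAs were *Lama3*, *Lama4* and *Col6a5*, all under 3 CPM in shCon. *Lama3* (α3) was at 1.34, 1.01 and 1.56 CPM in shCon, 5.52, 5.73 and 2.78 CPM with shGas41-1, and 4.63 and 4.98 CPM with shGas41-2. All 5 KD libraries lay above the 3 shCon libraries, and the lowest was shGas41-1 replicate 3. The log2 fold changes were 1.86 ± 0.31 (3.63-fold, adjusted p = 0.00561) and 1.88 ± 0.21 (3.69-fold, adjusted p = 0.00271). *Lama3* was the gene that kept its call in both KDs without each library in turn, with adjusted p-values of 0.00151 to 0.0299 and 0.000143 to 0.0286. Its partner *Lamb3* (β3) had no call with either shRNA, at −0.12 ± 0.25 and −0.46 ± 0.27.

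*Lama4* (α4) was at 0.474, 0.450 and 0.283 CPM in shCon, 1.63, 2.32 and 0.773 CPM with shGas41-1, and 1.23 and 1.22 CPM with shGas41-2, again with every KD library above every shCon library. The log2 fold changes were 1.99 ± 0.42 (adjusted p = 0.0141) and 1.61 ± 0.30 (adjusted p = 0.0174). The shGas41-1 call was lost without shCon replicate 2 or 3 (adjusted p up to 0.0566), and the shGas41-2 call without shCon replicate 2 or either shGas41-2 library (up to 0.113). Of the 6 endothelial markers listed, *Cdh5*, the cadherin of blood vessel junctions, was higher with both shRNAs (log2 fold changes 3.24 and 2.74) and the other tested markers were not. The summed level of the list was 58.4 to 76.3 CPM in shCon, 59.9 to 84.9 CPM with shGas41-1 and 73.5 to 78.7 CPM with shGas41-2. *Pecam1*, at 37.7, 41.5 and 52.5 CPM, made up most of the sum in shCon, where *Cdh5* was at 0.0809 to 0.155 CPM. The sum therefore says little about endothelial cells, and their part in the *Lama4* values was not tested.

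The most abundant laminin and collagen IV transcripts in these cells showed no call in KD. *Lamc1* was at 314, 353 and 424 CPM in shCon, 443, 456 and 219 CPM with shGas41-1 and 405 and 404 CPM with shGas41-2, so that the groups overlapped (log2 fold changes 0.05 ± 0.26 and 0.16 ± 0.13). *Lama1* was at 16.9, 27.3 and 23.3 CPM, then 24.0, 32.1 and 15.2 CPM, and 26.8 and 37.5 CPM (0.10 ± 0.27 and 0.52 ± 0.22), and *Lamb1* at 21.9, 27.8 and 29.1 CPM, then 30.8, 52.8 and 18.7 CPM, and 22.6 and 29.2 CPM (0.40 ± 0.32 and −0.01 ± 0.16). In each of these the library shGas41-1 replicate 3 was the lowest of its group. The same library was the lowest of its group for 27 of the 36 genes tested. It stood apart from its group over all genes as well, and the share of all genes for which it was the lowest was not computed. The 27 therefore cannot be set against a background or read as a trait of the collagen and laminin genes. Without this library the count of genes higher with shGas41-1 was again 9.

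*Lama5* gave 0.36 ± 0.23 and −0.01 ± 0.14, with shCon at 50.5, 66.0 and 67.6 CPM, shGas41-1 at 77.9, 103 and 52.8 CPM and shGas41-2 at 59.1 and 62.4 CPM. *Lamb2* was at 12.0, 14.1 and 17.2 CPM in shCon, 10.5, 10.8 and 7.80 CPM with shGas41-1 and 10.2 and 10.9 CPM with shGas41-2, and although every KD library lay below every shCon library neither difference passed (−0.55 ± 0.18, adjusted p = 0.0683, and −0.44 ± 0.16, adjusted p = 0.125). *Col4a1* was at 11.0, 12.2 and 14.2 CPM in shCon, 14.6, 15.4 and 8.34 CPM with shGas41-1 and 15.8 and 18.1 CPM with shGas41-2. *Col4a2* was at 4.27, 4.12 and 5.62 CPM, then 5.54, 6.21 and 3.16 CPM, and 6.82 and 6.10 CPM. For shGas41-2 both genes lay above all shCon libraries without passing the test (0.45 ± 0.14, adjusted p = 0.0835, and 0.47 ± 0.18, adjusted p = 0.126), and for shGas41-1 the groups overlapped (0.05 ± 0.23 and 0.11 ± 0.26). *Col4a5* lay between 0.0704 and 0.296 CPM in all 8 libraries and gave 1.03 ± 0.48 and 0.78 ± 0.54, and *Col4a3*, *Col4a4* and *Col4a6* were too low for the test, at 0 to 0.0674 CPM.

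**Figure D4:**
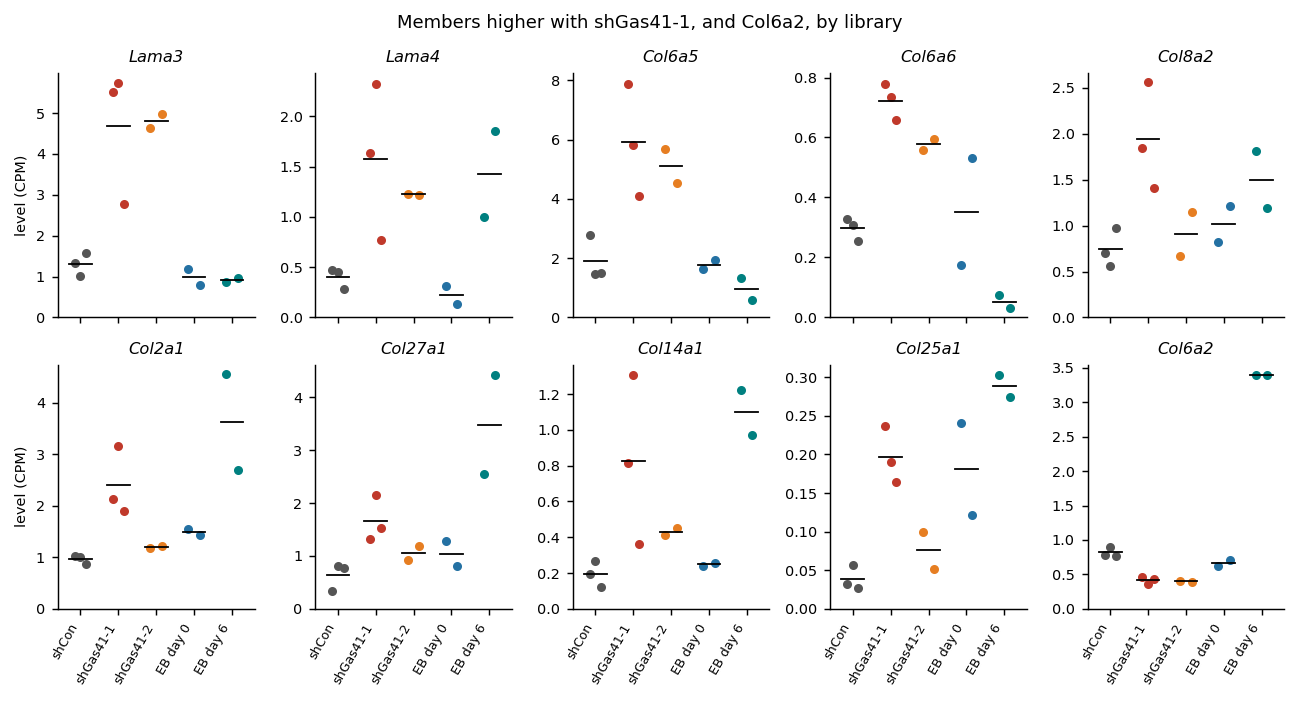
Level (CPM, y axes from 0 with a scale for each gene) of the 9 genes higher with shGas41-1, and of *Col6a2*, in every library, with group means as black lines. The 3 shGas41-1 libraries lie above the 3 shCon libraries for each of the 9 genes and below them for *Col6a2*. *Lama3*, *Lama4*, *Col6a5*, *Col6a6*, *Col2a1*, *Col14a1* and *Col27a1* are also above shCon in both shGas41-2 libraries, and *Col8a2* and *Col25a1* are not. Only *Lama3*, *Lama4* and *Col6a5* passed the test with shGas41-2.

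Collagen VI genes were among those called in KD cells. *Col6a5* (α5) was at 2.80, 1.46 and 1.50 CPM in shCon, 7.87, 5.82 and 4.11 CPM with shGas41-1, and 5.68 and 4.55 CPM with shGas41-2, with log2 fold changes of 1.65 ± 0.33 (adjusted p = 0.0114) and 1.43 ± 0.29 (adjusted p = 0.0251). Its neighbour *Col6a6* (α6) was at 0.327, 0.310 and 0.256 CPM, then 0.777, 0.735 and 0.658 CPM, and 0.560 and 0.595 CPM, which passed with shGas41-1 (1.30 ± 0.27, adjusted p = 0.0134) and not with shGas41-2 (0.96 ± 0.31, adjusted p = 0.0888). Both genes were above shCon in all 5 KD libraries. *Col6a2* (α2) lay below shCon in all 5: 0.785, 0.901 and 0.769 CPM in shCon, 0.461, 0.367 and 0.428 CPM with shGas41-1, and 0.410 and 0.388 CPM with shGas41-2.

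For *Col6a2* the log2 fold changes were −0.95 ± 0.25 (adjusted p = 0.0333), under the fold threshold, and −1.03 ± 0.28 (adjusted p = 0.0551), above the limit on p. With library size alone in place of TMM scaling *Col6a2* was called lower with both shRNAs, and it was called with shGas41-2 without shCon replicate 1 (adjusted p = 0.0436). The *Col6a5* call was lost without shCon replicate 2 in both KDs and, with shGas41-2, also without either shGas41-2 library (adjusted p up to 0.0527 and 0.152), and that of *Col6a6* without shCon replicate 2, shCon replicate 3 or shGas41-1 replicate 1 (up to 0.0584).

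The other 5 genes higher with shGas41-1 were the fibrillar collagens *Col2a1* and *Col27a1*, the FACIT collagen *Col14a1*, the network collagen *Col8a2* and the transmembrane collagen *Col25a1*. *Col2a1* was at 1.03, 0.999 and 0.863 CPM in shCon and 2.13, 3.16 and 1.91 CPM with shGas41-1 (1.34 ± 0.25, adjusted p = 0.00947), a call that held without each of the 6 libraries, and at 1.18 and 1.22 CPM with shGas41-2 (0.32 ± 0.23, adjusted p = 0.393). *Col14a1* was at 0.196, 0.267 and 0.121 CPM, then 0.816, 1.31 and 0.362 CPM, and 0.410 and 0.453 CPM (2.11 ± 0.51, adjusted p = 0.0233, and 1.15 ± 0.41, adjusted p = 0.114). Both genes lay above shCon in all 5 KD libraries.

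*Col27a1* was at 0.343, 0.816 and 0.769 CPM in shCon and 1.32, 2.15 and 1.53 CPM with shGas41-1 (1.39 ± 0.35, adjusted p = 0.0268), and at 0.933 and 1.19 CPM with shGas41-2. *Col8a2*, a collagen of the corneal Descemet membrane, was at 0.703, 0.563 and 0.971 CPM and then 1.84, 2.56 and 1.41 CPM (1.40 ± 0.30, adjusted p = 0.0151), and at 0.672 and 1.15 CPM with shGas41-2, which overlapped with shCon. *Col25a1*, a collagen of neurons and developing muscle, was near the smallest measurable amount in shCon, at 0.0327, 0.0563 and 0.0270 CPM, and at 0.237, 0.190 and 0.164 CPM with shGas41-1 (2.32 ± 0.49, adjusted p = 0.0135), and at 0.0995 and 0.0517 CPM with shGas41-2. Over the 6 omissions the adjusted p reached 0.0675 for *Col8a2* (without shCon replicate 2), 0.0619 for *Col25a1* (lost without shGas41-1 replicate 1 or shCon replicate 3), and 0.0854 and 0.0611 for *Col14a1* and *Col27a1* (lost without shGas41-1 replicate 1 or 2 or shCon replicate 2 or 3). With shGas41-1 the total was 5 without shGas41-1 replicate 1, 3 without shCon replicate 2 and 4 without shCon replicate 3, and with shGas41-2 it was 1 (*Lama3*) without shCon replicate 2 or either shGas41-2 library.

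The genes that EB formation moved were mostly without a call in KD, and some were too low for the KD tests. *Col1a2*, *Col4a6*, *Col9a1*, *Col19a1* and *Col24a1* were tested with neither shRNA, and *Col6a1* and *Col23a1* only with shGas41-2. Over all genes tested, 7.90% were higher and 2.40% lower with shGas41-1, and 3.96% and 0.869% with shGas41-2. Lacking a call was thus the rule over all genes as well. Among the fibrillar collagens *Col1a1* was at 0.458, 0.704 and 1.05 CPM in shCon, 0.487, 0.672 and 0.247 CPM with shGas41-1 and 0.684 and 0.621 CPM with shGas41-2. *Col5a1* was at 3.84, 4.80 and 6.20 CPM, then 8.34, 8.50 and 4.36 CPM, and 8.11 and 7.27 CPM, so that every KD library but shGas41-1 replicate 3 lay above all of shCon (0.53 ± 0.28 and 0.64 ± 0.20, adjusted p = 0.204 and 0.0848). *Col5a3* was at 0.556, 0.887 and 0.890 CPM, then 1.55, 1.03 and 0.888 CPM, and 1.26 and 1.22 CPM (0.59 ± 0.30 and 0.67 ± 0.28). Both chains had positive log2 fold changes with each shRNA, and neither passed the test. *Col5a2*, at 0.278, 0.211 and 0.229 CPM in shCon, was at 0.461, 0.317 and 0.296 CPM with shGas41-1 and 0.0871 and 0.181 CPM with shGas41-2 (0.60 ± 0.33 and −0.82 ± 0.49), and the shRNAs gave opposite signs without a call. *Col11a1* was at 1.11, 1.07 and 1.93 CPM, then 1.55, 1.94 and 1.33 CPM, and 1.22 and 1.37 CPM, and *Col1a2* and *Col24a1* did not exceed 0.228 CPM in any of the 8 libraries.

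Among the other collagens *Col6a4* was at 1.73, 2.53 and 2.64 CPM in shCon, 1.94, 3.09 and 2.12 CPM with shGas41-1 and 3.16 and 3.53 CPM with shGas41-2. *Col22a1* was at 0.670, 0.774 and 0.809 CPM, then 0.527, 0.558 and 0.329 CPM, and 0.721 and 0.685 CPM (−0.64 ± 0.28 and −0.09 ± 0.26). *Col18a1* was at 166, 261 and 118 CPM with shGas41-1 and 134 and 164 CPM with shGas41-2, beside the 163 to 226 CPM of shCon (−0.12 ± 0.27 and −0.42 ± 0.16). None of these passed, and the shGas41-1 values of *Col18a1* enclosed those of shCon. *Col9a2* was at 2.52, 2.39 and 2.85 CPM, then 3.15, 2.56 and 2.81 CPM, and 2.44 and 2.03 CPM, with overlapping groups. *Col17a1* and *Col20a1* stayed between 0.127 and 0.560 CPM and *Col6a1*, *Col16a1* and *Col23a1* between 0.0622 and 0.369 CPM in the 8 libraries.

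The direct comparison of the shRNAs gave no call for any gene. Of 42 collagen and laminin genes tested over the 8 libraries, 0 passed in the comparison of shGas41-1 with shGas41-2, where 0% of all 19146 genes passed, and at an unadjusted p under 0.05 there were 4, all higher with shGas41-1, of 1348 genes in all. DESeq2 also called 0 of these genes. The log2 differences reached 1.43 for *Col5a2*, 1.38 for *Col25a1* and 1.11 for *Col8a2*, so the absence of a call does not show that the shRNAs acted alike.

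The response to EB formation was then set against the response to each KD in a fit over all 12 libraries, testing the difference of the log2 fold changes. Of 46 genes tested, 25 differed between EB and shGas41-1 (12 more positive and 13 more negative in EBs) and 23 between EB and shGas41-2 (13 and 10), where 33.3% and 31.7% of all 19613 genes differed. *Lama3* was among the genes with a more positive response to KD, with differences of −1.95 (adjusted p = 0.00442) and −1.99 (adjusted p = 0.00532), as were *Col6a5* (−2.52 and −2.30) and *Col6a6* (−3.96 and −3.63). *Col6a2* gave the smallest adjusted p among genes more positive in EBs, with differences of 3.32 (adjusted p = 7.96e-06) and 3.38 (adjusted p = 1.12e-05). The differences of *Lama1* (−2.28 and −2.71), *Lamc1* (−1.40 and −1.51) and *Lamb1* (1.57 and 1.97) passed in both fits.

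The collagen IV pair *Col4a1* and *Col4a2* gave differences of 1.72 and 1.72 against shGas41-1 and 1.31 and 1.35 against shGas41-2, the latter lost for both without EB day 0 replicate 3 or EB day 6 replicate 3, for *Col4a1* without shGas41-2 replicate 1 and for *Col4a2* without shGas41-2 replicate 2. Of the 9 genes higher with shGas41-1, 4 were also higher in EBs (*Lama4*, *Col2a1*, *Col27a1* and *Col14a1*), 1 was lower (*Col6a6*) and 4 had no call (*Lama3*, *Col6a5*, *Col8a2* and *Col25a1*). The share of all genes higher with shGas41-1 that were also higher in EBs was not computed, so this split has no background. The shGas41-1 calls of *Lama4*, *Col27a1* and *Col14a1* were each lost in some omissions, as given above. For those 4 shared genes the difference of the responses did not pass, with values whose adjusted p lay between 0.456 and 0.972 against shGas41-1.

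The enzymes and chaperones that make collagen were followed as a list of 28 measured genes. In EBs 8 of 25 tested were higher and 4 lower, beside 16.6% and 14.7% of all genes. *Serpinh1*, the collagen-specific chaperone, was at 37.1 and 35.6 CPM and then 85.0 and 118 CPM (log2 fold change 1.46, adjusted p = 0.000361), and *Pcolce*, an enhancer of procollagen cleavage, was at 113 and 114 CPM and then 7.02 and 6.36 CPM (−4.10, adjusted p = 2.42e-06). With shGas41-1 4 of 25 were higher and 0 lower, beside 7.90% and 2.40% of all genes, and with shGas41-2 4 of 24 and 0, beside 3.96% and 0.869%. The same shares of all genes stand behind the counts of the other lists. *Loxl2*, a cross-linking oxidase of collagen IV, was at 40.8 to 55.7 CPM in shCon, 124 to 195 CPM with shGas41-1 and 137 and 154 CPM with shGas41-2 (1.68, adjusted p = 0.00274, and 1.59, adjusted p = 0.00145). *Leprel2*, a collagen prolyl 3-hydroxylase, gave 1.53 and 1.43, and *Glt25d2*, a collagen galactosyltransferase near the smallest measurable amount in shCon, also passed in both.

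The other basement membrane components, 18 measured genes, moved in both directions in EBs, with 11 higher and 4 lower of 18. *Nid1*, the nidogen that links laminin to collagen IV, was at 203 and 182 CPM and then 8.27 and 8.72 CPM (−4.53, adjusted p = 2.42e-06). *Hspg2* (perlecan) was at 271 and 195 and then 110 and 77.2 CPM (−1.34, adjusted p = 0.00217), while *Pxdn*, the peroxidase that makes the sulfilimine cross-links of collagen IV, was at 6.21 and 6.77 and then 115 and 129 CPM (4.21, adjusted p = 2.42e-06). With shGas41-1 2 of 17 were higher, *Fras1* and *Smoc2*, and with shGas41-2 1 of 17, *Sparc*, a collagen-binding protein (319, 325 and 314 CPM with shGas41-1 and 326 and 393 CPM with shGas41-2 against 180, 189 and 135 CPM in shCon). *Smoc2* was near the smallest measurable amount in shCon, at 0 to 0.0563 CPM, and at 0.230 to 0.266 CPM with shGas41-1. The shGas41-1 value of *Sparc*, 0.94 with an adjusted p of 0.00518, was under the fold threshold.

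Of the collagen and laminin receptors, 3 of 11 tested were higher and 5 lower in EBs. The lower ones included *Itga6* (141 and 148 CPM, then 79.6 and 63.4 CPM), *Itgb4* (5.98 and 5.71, then 1.09 and 0.913 CPM) and *Bcam* (108 and 95.5, then 40.2 and 36.6 CPM), all laminin receptors. *Itgb1*, the shared β1 integrin chain, *Itga1* and *Ddr1*, both collagen receptors, were higher (log2 fold changes 1.40, 3.74 and 1.61). The other lower genes were *Itga10* (−1.63, adjusted p = 0.0375) and *Ddr2*. Under the fold threshold, *Dag1* was higher (0.55, adjusted p = 0.00254) and *Itga3* lower (−0.77, adjusted p = 0.00124). In KD 1 of 12 was higher with each shRNA, a share close to the 7.90% of all genes with shGas41-1. It was *Ddr2*, a receptor for fibrillar collagen, at 2.21, 1.28 and 1.71 CPM in shCon, 5.82, 5.96 and 4.85 CPM with shGas41-1 and 6.72 and 5.38 CPM with shGas41-2 (1.70, adjusted p = 0.00314, and 1.81, adjusted p = 0.00523). In EBs *Ddr2* was lower, at 2.46 and 1.56 and then 0.272 and 0.183 CPM. Of the interstitial matrix list, 6 of 10 tested were higher and 1 lower in EBs, 1 of 7 higher with shGas41-1 (*Bgn*, 2.34) and 1 of 8 lower with shGas41-2 (*Fn1*, −1.02).

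Markers of other cell types moved with the EB values. Of the primitive and parietal endoderm list, 8 of 10 tested were higher and 1 lower at EB day 6, and its summed level was 8.94 to 9.73 CPM at EB day 0 and 104 to 286 CPM at EB day 6, with *Afp* not listed in the EB table and *Ttr* at 0 to 0.0151 CPM. Of the cartilage and notochord list, 5 of 9 were higher and 1 lower, and its sum was 12.4 to 13.0 CPM at EB day 0 and 422 to 525 CPM at EB day 6, where *T* made up nearly all of it (415 and 519 CPM), while *Noto* and *Shh* lay at 0 to 0.0606 CPM. Of the fibroblast list without its collagens, 1 of 2 tested was higher (*Pdgfrb*), the sum was 9.51 to 13.0 CPM at EB day 0 and 21.6 to 25.0 CPM at EB day 6, and *Postn*, *Lum* and *Fap* did not exceed 0.136 CPM. *Dcn*, also on that list and too low for the test, was at 0 CPM in both EB day 0 libraries and 0.393 and 0.152 CPM at EB day 6. Of the endothelial list, 1 of 4 was higher (*Kdr*) and 3 lower, with sums of 69.3 to 77.1 CPM at EB day 0 and 18.0 to 67.2 CPM at EB day 6. *Pecam1* (45.5 and 30.6 CPM) was the largest part of that sum at EB day 0, while *Kdr* was at 7.27 and 58.1 CPM at EB day 6. The part of each cell type in the collagen and laminin values was not tested.

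In KD cells the endoderm list had 3 of 12 higher and 0 lower genes with shGas41-1 and 1 of 13 higher with shGas41-2, with sums of 6.74 to 7.81 CPM in shCon, 9.83 to 14.4 CPM with shGas41-1 and 10.9 to 13.1 CPM with shGas41-2. The cartilage and notochord list had 2 of 8 higher and 1 lower with shGas41-1, and 1 of 9 higher with shGas41-2, with sums of 10.1 to 11.2 CPM in shCon, 6.23 to 8.16 CPM with shGas41-1 and 9.94 to 10.0 CPM with shGas41-2. *Comp*, a cartilage matrix protein, was higher with both shRNAs (log2 fold changes 1.50 and 1.66). *Sox9*, the cartilage regulator of *Col2a1*, was at 0.0981, 0.127 and 0.0405 CPM in shCon, 0.421, 0.520 and 0.559 CPM with shGas41-1 (2.50, adjusted p = 0.00659) and 0.261 and 0.284 CPM with shGas41-2 (1.63, adjusted p = 0.088), while *Acan*, the cartilage proteoglycan, was lower with shGas41-1 (−1.01). The fibroblast list had 1 lower gene of 2 with shGas41-1 (*Thy1*), and 2 of 8 ESC markers, *Klf4* and *Esrrb*, were lower with shGas41-1 and 0 with shGas41-2 (quasi-likelihood test). The part of these cells in the KD values was likewise not tested.

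Several members lie next to each other. With a gap under 200 kb between annotated ends in mm9, 17 of the 54 genes formed 9 neighbouring pairs. In the 7 pairs with both genes tested in EBs the log2 fold changes had the same sign. The share of neighbouring pairs with the same sign over all genes was not computed, so the count cannot be set against a background. *Col6a5*, which had no call in EBs, entered it with both *Col6a6* and *Col6a4*. Among them *Col4a1* and *Col4a2*, *Col4a5* and *Col4a6*, *Col6a1* and *Col6a2* and *Col9a1* and *Col19a1* were higher, and the row *Col6a6*, *Col6a5* and *Col6a4* on chromosome 9 lay at −2.69, −0.90 and −4.21. The pairs share chromosome position and, in part, sequence and origin, and this is a description of these genes. In KD cells the collagen VI row gave 1.30, 1.65 and 0.07 with shGas41-1 and 0.96, 1.43 and 0.54 with shGas41-2, so *Col6a4* did not share the calls of its neighbours.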

How the data were processed

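mRNA was sequenced from 12 libraries of J1 cells and EBs. The authors made unstranded TruSeq libraries, mapped reads to mm9 with TopHat2 2.0.10 and counted them per gene with HTSeq, and deposited raw counts as whole numbers, with no normalization. The deposited tables also hold the authors' own log2 fold changes, p-values and FDR, which were not used. Here low genes were removed with filterByExpr (count of 10, total of 15), and the rest were scaled by TMM and tested with the quasi-likelihood test of edgeR 4.0.16 in R 4.3.3, with Benjamini-Hochberg adjustment over all genes tested. A call needed an absolute log2 fold change of at least 1 and an adjusted p of at most 0.05. CPM values were scaled by TMM over all 12 libraries together. DESeq2 1.42.0, other scalings and filters, halved counts, a replicate block and the omission of each library were the alternatives. Intervals cover counting error only, not the spread between libraries, and treat reads as independent molecules, which they are not. Values per library are given for most genes called in any comparison or difference and for the main basement membrane chains, and other genes by ranges. A gene that enters the counts, medians and sums is not reported here. The genes, classes and lists were chosen with earlier results of these data known. The tests were tested on simulated data.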

Additional observations from a re-analysis of the deposited data

How the results depend on the processing

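No gene called in a comparison changed direction under the alternatives run, while genes without a call, such as *Lamc1* and *Col4a1* with shGas41-1, changed sign over the omissions. The number of genes higher with shGas41-1 was 9, 3 to 10 over the omissions of 1 library and 7 with the replicate block, which lost *Col8a2* and *Col25a1*. With shGas41-2 it was 3, and 1 to 3 over the omissions. In EBs it was 10 to 20 higher (21 with all libraries) and 6 to 12 lower (10 with all libraries) over the omissions. *Col6a2* was the 1 lower gene with shGas41-1 under library size alone and with the adjusted p alone, and with shGas41-2 under library size alone, no filter, the replicate block, halved counts and 1 fit over 12 libraries, with 0 to 1 over the omissions. Library size alone moved the median of all genes by −0.08 in each comparison. Replicate numbers showed no steady pairing of shCon with shGas41-1. Same-numbered libraries of these groups correlated at 0.024, 0.126 and −0.314, and different-numbered ones at −0.369 to 0.306. Same-numbered shCon and shGas41-2 libraries correlated at 0.273 and 0.182, and the EB days at 0.0556. With 2 libraries in a group the values are equal and opposite by construction, so they cannot decide on pairing. In EBs the replicate block gave 20 higher and 10 lower genes. Groups of 2 and 3 libraries and levels under 1 CPM limit the precision of most collagens.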

Other observations

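The undifferentiated controls of both experiments, shCon and EB day 0, carried the control vector in LIF medium, and several abundant chains lay higher in EB day 0. *Lama1* was at 16.9 to 27.3 CPM in shCon and 45.3 and 53.0 CPM in EB day 0, *Lama5* at 50.5 to 67.6 and at 100 and 121 CPM, and *Lamc1* at 314 to 424 and at 530 and 536 CPM. The ranges did not overlap for these 3 genes, and the difference was not tested, since culture time and batch of these sets cannot be told apart.

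A few collagens that were too low for the test, named after their values were seen, had counts in KD libraries. *Col8a1*, a partner of *Col8a2* in the Descemet membrane, had 0 counts in shCon and 25 over the 3 shGas41-1 libraries, at least 2.61-fold higher against 3 counts in each library, with 10, 9 and 6 counts in the 3 libraries. *Col6a3* had 0 counts in shCon, 9, 2 and 2 counts with shGas41-1, of which replicate 1 held most, and 8 counts in each shGas41-2 library, at least 2.31-fold higher. *Col15a1*, an endostatin-bearing collagen, was at 0 to 0.0539 CPM in shCon and 0.119 to 0.181 CPM with shGas41-1.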
